A study of Mus musculus with 6 samples.

Results

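Integrins, syndecans, discoidin domain receptors, dystroglycan, Cd47 and the core proteins of focal adhesions, by which cells hold on to their matrix, were followed in the articular and the mature zone of the mouse mandibular condyle. The members were 35 genes taken by symbol from these families, and all 35 were found among the 22609 genes of the count table. RNA had been sequenced from cells cut out by laser capture microdissection from condyles of CD-1 mice at postnatal day 7, with no treatment or genetic change named in the labels. The articular zone, the surface layer of densely packed cells, gave 3 libraries (replicates 2, 3 and 4), and the mature zone, the chondrocyte layer under it, gave 2 (replicates 2 and 3). A further mature zone replicate of the 6 samples mapped poorly according to its label and has no values here. Each library pooled RNA from many captured sections, the number of animals in a pool is not given, and zones were told apart by cell morphology alone.

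Integrins are pairs of an alpha and a beta chain that span the membrane. Outside the cell the pair decides which matrix protein is bound, and inside the cell the tail of the beta chain recruits talin and kindlin, which connect to vinculin, paxillin, the ILK scaffold and the actin cytoskeleton. Syndecans carry heparan sulfate chains and act beside integrins, discoidin domain receptors are tyrosine kinases switched on by collagen, and dystroglycan ties laminin to the dystrophin complex. Chondrocytes use such receptors, in particular integrins of the beta 1 class, to sense the collagen and fibronectin around them.

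Total counts were 15449883 to 18884685 in articular zone libraries and 15555620 to 16302047 in mature zone libraries. The chondrocyte markers followed the zone labels. A list of 14 chondrocyte genes summed to 2160 to 4015 CPM in the articular zone and to 26828 and 45174 CPM in the mature zone, with 13 of the 14 lower in the articular zone by the test described next. Of the 13, Matn1 had no counts in the articular zone, so it entered that test only through the mature zone. A list of 5 genes of the superficial layer summed to 146 to 238 CPM in the articular zone and to 65.5 and 136 CPM in the mature zone, and 1 of the 5, Sfrp4, was called higher. Most of these sums was Tppp3, which did not pass (log2 fold change 0.33, adjusted p = 0.716 from edgeR). Skeletal muscle markers did not follow the zones: the 11 genes summed to 1626 CPM in articular zone replicate 2 and 1367 CPM in mature zone replicate 2, against 26.3 to 95.8 CPM in the other 3 libraries, and none of the 11 was at 0 in a zone.

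For most of the adhesion genes no difference between the zones was detected beyond the spread of the libraries. Sdc4, a syndecan of focal adhesions, was lower in the articular zone, Itgb5, the integrin beta 5 chain, was higher, and 32 of the 34 members that could be tested did not pass. The test was the quasi-likelihood test of edgeR on the raw counts of the 13119 genes that reached 10 counts in 2 or more libraries, and a gene was called where its Benjamini-Hochberg adjusted p over all of them was under 0.05. Levels are in CPM, counts scaled to a common library size after TMM normalisation. Log2 fold changes are given as articular over mature zone, with their standard error (SE). Of all genes tested, 3.00% were called, 1.14% higher and 1.85% lower in the articular zone, so that 1 member in each direction is close to this background. At an unadjusted p under 0.05, 2 members were higher (Itga9 and Itgb5) and 5 were lower (Itga10, Sdc3, Sdc4, Dag1 and Ptk2), 20.6% of the members tested against 20.1% of all genes, which were 10.8% higher and 9.27% lower. The zones did not overlap in CPM for 14 members, 7 higher and 7 lower, or 41.2%, against 38.7% of all genes, which were 21.1% higher and 17.6% lower. Among the 7 higher members, Itgb7 and Itgb8 had at most 34 counts in any library. Both met the count filter only through the articular zone, so their separation is not read as a difference between the zones. The median log2 fold change was 0.06 over the members and 0.07 over all genes. The protocol calls the pools independent biological replicates, and with 3 and 2 of them the p-values rest on the spread among few libraries. In such bulk samples, fewer cells of a type and less RNA per cell cannot be told apart.

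**Figure D1:**
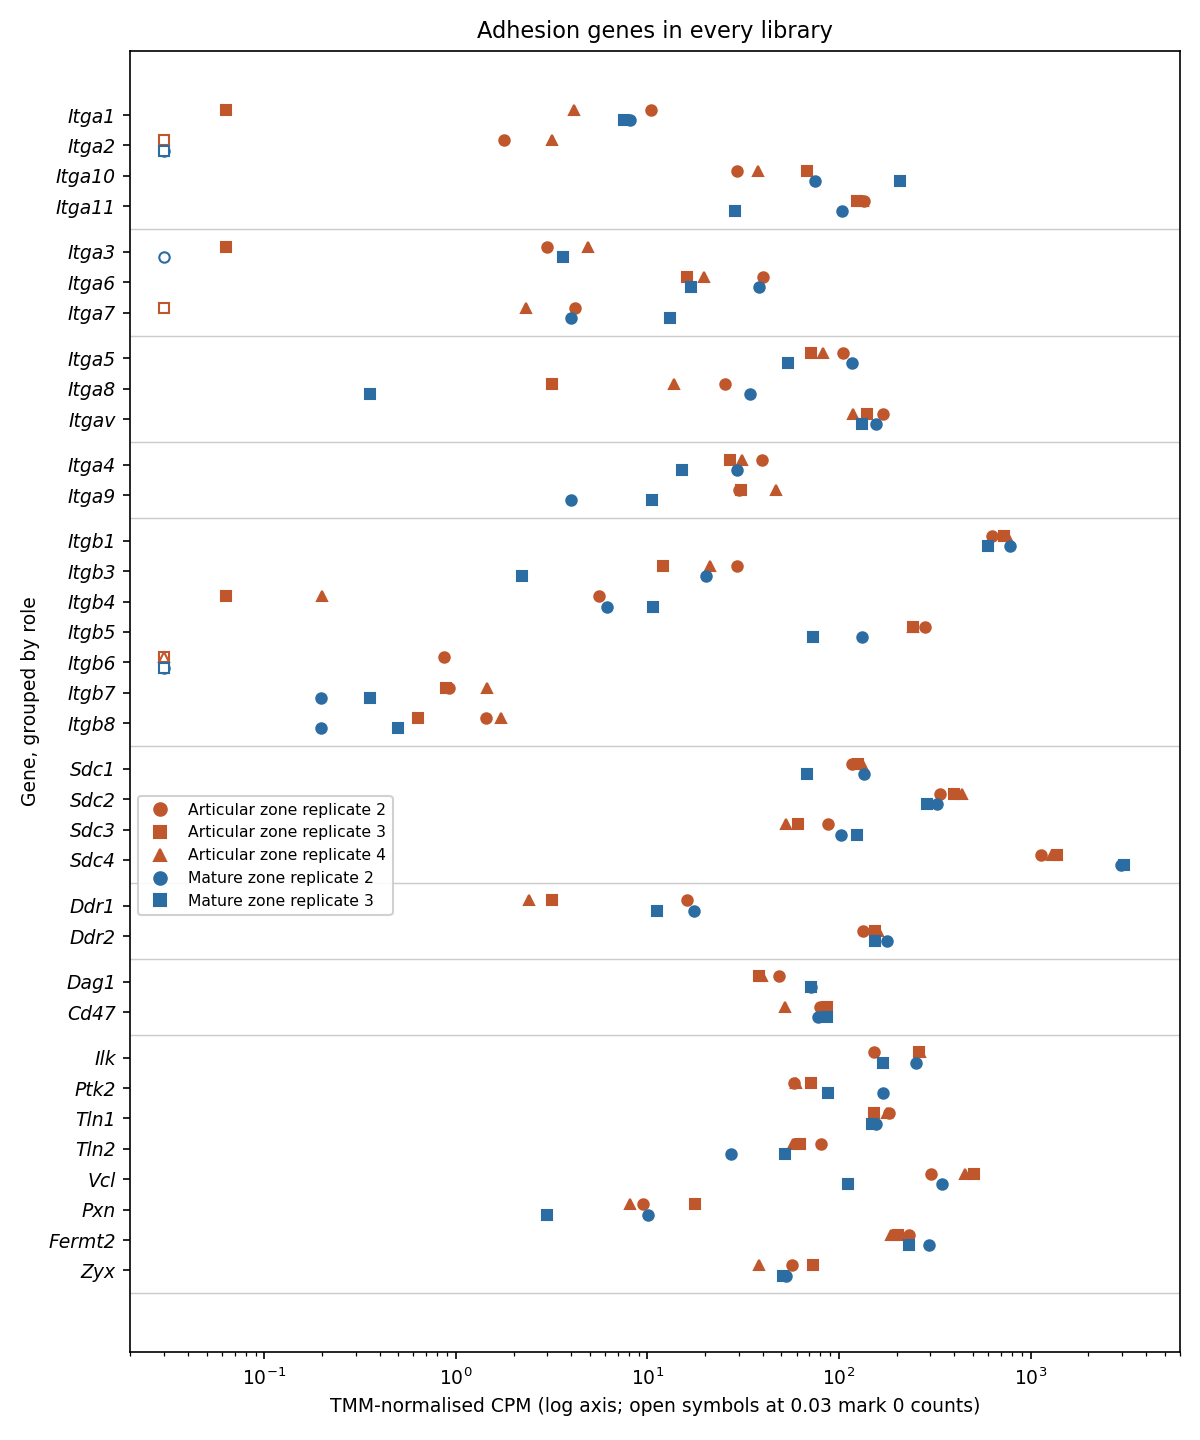
TMM-normalised CPM (log axis) of the 35 adhesion genes in each articular zone library (orange) and mature zone library (blue), grouped by role with grey lines between the groups; the shape of a symbol gives the replicate number and open symbols at the left mark 0 counts. Sdc4 lies at 1130 to 1376 CPM in the articular zone and 2960 and 3082 CPM in the mature zone, and several thinly expressed chains drop to 0 or 1 count in articular zone replicate 3.

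None of the 4 integrin alpha chains that bind collagen passed over all genes, and the fitted values of Itga10 and Itga11, the most abundant of them, had opposite signs. Itga10, the chain that chondrocytes use to bind type II collagen, had 29.4, 68.1 and 37.5 CPM in the articular zone and 74.4 and 208 CPM in the mature zone. All articular zone libraries lay below the mature zone, although articular zone replicate 3 came close to mature zone replicate 2. The log2 fold change of -1.65 (SE 0.49) had an unadjusted p of 0.0099 and did not pass over all genes (adjusted p = 0.122, edgeR). It was -2.21 without mature zone replicate 2 (adjusted p = 0.0202, edgeR) and -0.73 without mature zone replicate 3 (0.465), and in DESeq2 it passed (0.0177). In the annotation, 33.5% of the exon length of Itga10 is shared with another gene on the same strand, which counting by gene could split.
Itga11, a collagen receptor chain known from mesenchymal cells and fibroblasts, had 135, 124 and 133 CPM in the articular zone and 104 and 28.8 CPM in the mature zone. The articular zone libraries were close together, and the mature zone libraries were 3.60-fold apart. The log2 fold change was 0.98 (SE 0.47, adjusted p = 0.297), and without mature zone replicate 2 it was 2.18 (adjusted p = 0.00769, edgeR) and without mature zone replicate 3 it was 0.34 (0.539). Within each library the ratio of Itga11 to Itga10 in FPKM, a level scaled for gene length by the authors, was 4.24, 1.64 and 3.19 in the articular zone, against 1.12 and 0.122 in the mature zone. The same ratio from counts per kilobase of annotated exon was 1.84 to 4.65 in the articular zone, against 0.140 and 1.41 in the mature zone. On both scales every articular zone library had more Itga11 than Itga10, and mature zone replicate 3 had less.
The other chains of this class were thinly expressed. Itga1 had 180, 1 and 82 counts in the articular zone, against 123 and 106 in the mature zone. Itga2 was counted 31, 0 and 63 times in the articular zone and 0 times in both mature zone libraries. Bounded against 3 counts over the mature zone it was at least 17.3-fold higher, which covers counting error only. Itga2 met the count filter only through the articular zone, so this bound is not read as a difference between the zones. Its zones overlapped at 0 and it did not pass (adjusted p = 0.276 from edgeR).

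Of the alpha chains that bind fibronectin and vitronectin, Itgav and Itga5 had fitted values near 0, and none of the group passed. Itgav, which pairs with several beta chains and binds vitronectin and latent TGF-beta, had 169, 139 and 118 CPM in the articular zone and 156 and 132 CPM in the mature zone. Its log2 fold change of -0.02 had a 95% interval of -0.55 to 0.51. Itga5, the chain of the main fibronectin receptor, had 105, 71.8 and 82.0 CPM in the articular zone and 116 and 53.8 CPM in the mature zone, with an interval of -0.81 to 0.86. Itga8, a receptor chain for nephronectin, ranged from 3.16 to 25.5 CPM in the articular zone and was at 34.2 and 0.356 CPM in the mature zone, a spread within the mature zone that leaves no reading of the zones. For the signs of these near-zero values, Itga5 kept its direction under other scalings, while Itgav turned positive with upper-quartile normalisation (0.08).

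Itga9 had the highest fitted log2 fold change among the members with counts in every library. The chain pairs with beta 1 and binds tenascin-C and VCAM1. It had 30.0, 30.7 and 47.0 CPM in the articular zone and 4.01 and 10.6 CPM in the mature zone, with no overlap, and a log2 fold change of 2.30 (SE 0.58, unadjusted p = 0.0043, adjusted p = 0.0844, edgeR). It stayed just outside the threshold over all genes and passed where genes had to have at least 10 counts in every library (adjusted p = 0.0434) and in DESeq2 (adjusted p = 0.00261). Itga4, its closest relative among the alpha chains and a receptor for VCAM1 and fibronectin, was at 27.1 to 39.5 CPM in the articular zone and at 29.4 and 15.2 CPM in the mature zone (log2 fold change 0.55, SE 0.45).
Of the laminin-binding chains, Itga6 was the most abundant by FPKM. It had 39.9, 16.0 and 19.8 CPM in the articular zone and 38.4 and 16.8 CPM in the mature zone, high in replicate 2 of each zone and low in the rest. Itga3 and Itga7, known from epithelium and skeletal muscle, were at or under 4.88 CPM in the articular zone and at or under 13.1 CPM in the mature zone, and none of the 3 passed.
Replicate 2 of each zone stood above the other 3 libraries for 6 members (Itga1, Itga5, Itga6, Itga8, Itgav and Ddr1), or 17.6% of those tested, against 8.07% of all genes tested. The muscle markers were also highest in these libraries, and their part in these values was not tested.

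Among the beta chains, the common partner was level and beta 5 was not. Itgb1, the partner of most alpha chains above, had 632, 728 and 748 CPM in the articular zone and 780 and 602 CPM in the mature zone. Its log2 fold change was 0.02 (SE 0.19, 95% interval -0.40 to 0.45, adjusted p = 0.965 from edgeR).
Itgb5 pairs with alpha v and binds vitronectin. It had 282, 244 and 243 CPM in the articular zone and 131 and 72.9 CPM in the mature zone. Every articular zone library lay above both mature zone libraries, with means of 257 ± 22.5 CPM (SD, n = 3) in the articular zone, against 102 ± 41.1 CPM (SD, n = 2) in the mature zone. The log2 fold change was 1.33 (SE 0.28, 95% interval 0.68 to 1.98) and passed narrowly, at an adjusted p of 0.0489 from edgeR's quasi-likelihood test. The call was lost without articular zone replicate 2 (adjusted p = 0.165), 3 (0.137) or 4 (0.173) and without mature zone replicate 3 (0.109), while it held without mature zone replicate 2 (0.00863) and without both replicate 2 libraries (0.00309). In these fits the log2 fold change was 0.97 to 1.81. Endothelial markers, 9 genes of which 4 had no counts in the mature zone, summed to 141, 10.8 and 109 CPM in the articular zone and 32.7 and 0.143 CPM in the mature zone. Their part in the level of Itgb5 was not tested.
By FPKM, Itgb1 and Itgb5 together made up nearly the whole of the beta chains. Itgb5 took 46.6%, 39.1% and 38.7% of the summed beta chain FPKM in the articular zone, against 24.6% and 19.4% in the mature zone, and Itgb1 took 50.9% to 59.8% in the articular zone, against 73.2% and 78.3% in the mature zone. With counts per kilobase of annotated exon the share of Itgb5 was lower, 26.7% to 33.0% in the articular zone, against 12.1% and 15.9% in the mature zone, and the zones again did not overlap.
The remaining beta chains were thin. Itgb3, a chain of osteoclasts and platelets, ranged from 12.0 to 29.5 CPM in the articular zone and was at 20.2 and 2.21 CPM in the mature zone. Itgb4, which builds hemidesmosomes with alpha 6 in epithelium, had 97, 1 and 4 counts in the articular zone, against 94 and 150 in the mature zone. Itgb7, known from lymphocytes, and Itgb8, which releases TGF-beta from its latent form, had at most 34 counts in any library. Itgb6, an epithelial chain, had 15 counts in articular zone replicate 2 and 0 in all other libraries, and was the only member under the count filter. None of the 4 that were tested passed.

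**Figure D2:**
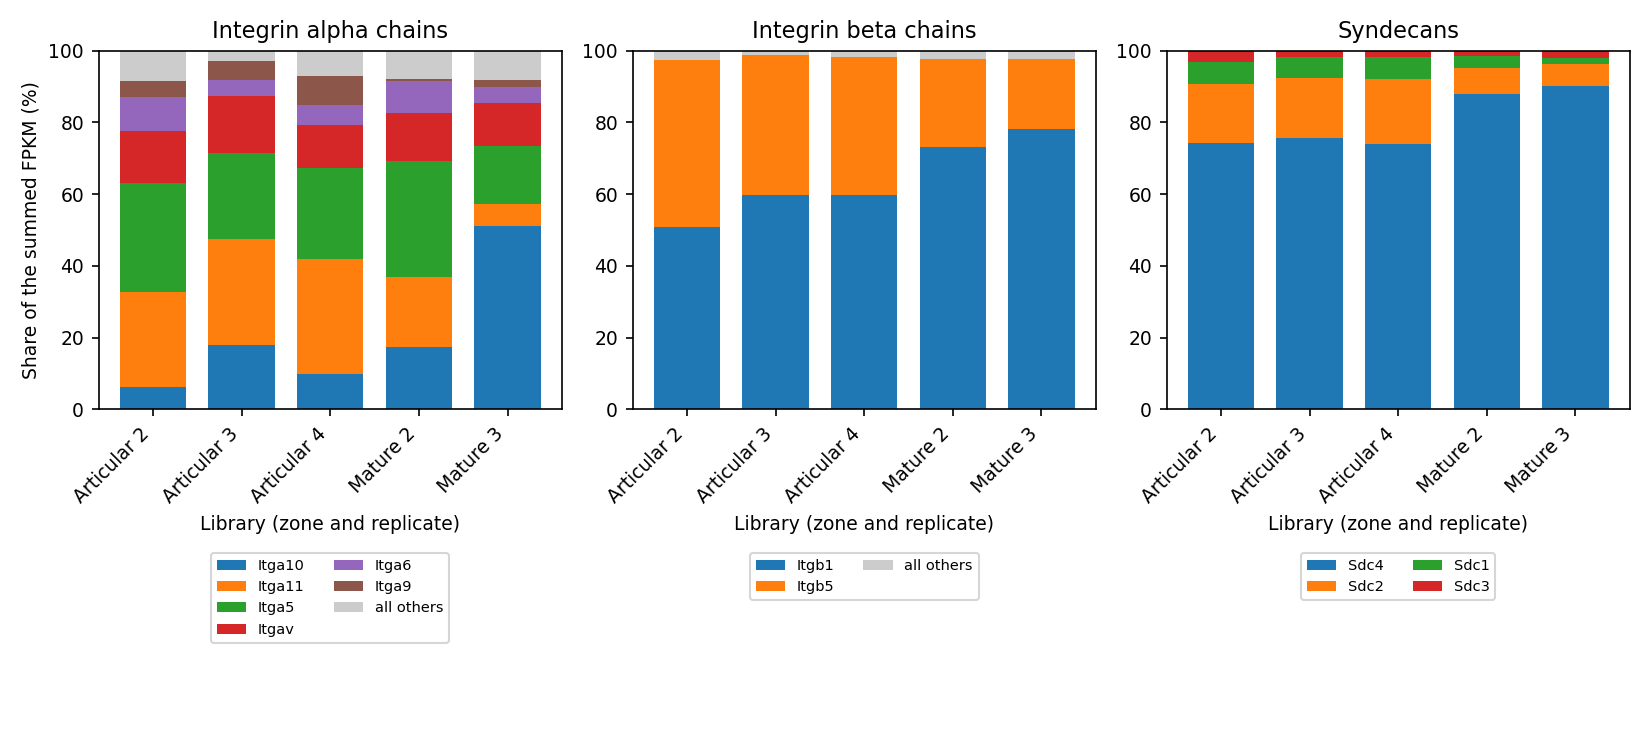
Share of the summed FPKM (%) within the integrin alpha chains, the integrin beta chains and the syndecans, as stacked bars for each articular and mature zone library. Itgb5 takes 38.7% to 46.6% of the beta chains in the articular zone, against 19.4% and 24.6% in the mature zone, and Itga10 reaches 51.1% of the alpha chains in mature zone replicate 3.

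The syndecans held the clearest difference. Sdc4 is a coreceptor for fibronectin that sits in focal adhesions. It had 1130, 1376 and 1296 CPM in the articular zone and 2960 and 3082 CPM in the mature zone, with means of 1268 ± 125 CPM (SD, n = 3) in the articular zone, against 3021 ± 85.8 CPM (SD, n = 2) in the mature zone. Both zones were tight and far apart. The log2 fold change was -1.25 (SE 0.16, 95% interval -1.61 to -0.89), with an adjusted p of 0.0107 from edgeR's quasi-likelihood test. The call was lost without articular zone replicate 4 (adjusted p = 0.0943) and held in the other 4 fits with a library left out (0.00906 to 0.0471), where the log2 fold change stayed between -1.30 and -1.17. The chondrocyte markers summed higher in the mature zone, as given above, and their part in the level of Sdc4 was not tested.
By FPKM, Sdc4 was the most abundant of the 35 members in every library, at 165, 212 and 207 in the articular zone, against 430 and 375 in the mature zone. It took 73.9% to 75.7% of the summed syndecan FPKM in the articular zone, against 87.9% and 90.3% in the mature zone. Next by mean on both length scales came Itgb1, at 58.1 to 75.6 FPKM in the articular zone and at 72.8 and 44.9 FPKM in the mature zone. In articular zone replicate 3 alone, Ilk was above Itgb1 on the FPKM scale, at 76.0 against 72.8. No order is read from this, as the means in counts per kilobase of annotated exon were 80.5 for Ilk and 171 for Itgb1. Ilk followed on the FPKM scale and Sdc2 on counts per kilobase of annotated exon, so no order is read between them.
Sdc3, a syndecan with a long extracellular part, went in the direction of Sdc4 with a smaller difference. It had 87.6, 61.0 and 53.1 CPM in the articular zone and 102 and 124 CPM in the mature zone. The zones did not overlap, and the log2 fold change was -0.75 (SE 0.29, unadjusted p = 0.033, adjusted p = 0.204 from edgeR). Sdc2, a syndecan of mesenchymal cells, leaned the other way, at 338, 400 and 438 CPM in the articular zone and 325 and 288 CPM in the mature zone (log2 fold change 0.36, 95% interval -0.08 to 0.79). Sdc1 was at 116 to 132 CPM in the articular zone and 135 and 68.4 CPM in the mature zone. The ratio of Sdc4 to Sdc2 in FPKM was 4.54, 4.55 and 4.07 in the articular zone, against 12.2 and 14.9 in the mature zone.

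The promoters of Sdc4 and Itgb5 are shown because these members passed in opposite directions. The 250 bases before the transcription start are taken from RefSeq (GRCm38.p6). Capitals mark GC boxes (GGGCGG on either strand) and, in Sdc4, 1 match to the NF-kB consensus that runs directly into a GC box. Sdc4 is on the minus strand of chr2:164443189-164443438 and Itgb5 on the plus strand of chr16:33829415-33829664. The GENCODE annotation places the start of Sdc4 further upstream, at chr2:164443887, so in that annotation the bases shown for Sdc4 lie inside the gene.
Sdc4: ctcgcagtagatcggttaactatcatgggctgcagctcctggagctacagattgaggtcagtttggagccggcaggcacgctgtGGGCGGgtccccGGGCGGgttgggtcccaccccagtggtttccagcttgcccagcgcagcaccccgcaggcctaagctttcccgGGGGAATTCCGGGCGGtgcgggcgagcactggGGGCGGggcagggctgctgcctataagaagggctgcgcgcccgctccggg
Itgb5: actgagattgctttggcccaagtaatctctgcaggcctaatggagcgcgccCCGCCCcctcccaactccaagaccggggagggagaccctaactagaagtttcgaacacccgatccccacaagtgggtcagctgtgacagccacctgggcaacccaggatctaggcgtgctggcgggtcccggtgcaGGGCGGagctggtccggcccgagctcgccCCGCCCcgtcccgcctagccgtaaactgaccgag
Both stretches are rich in G and C, at 68% for Sdc4 and 65.2% for Itgb5, against a median of 52.4% over the 32851 promoters of the same length. Sdc4 holds 4 GC boxes and Itgb5 holds 3, a motif found in 32.7% of all these promoters. The NF-kB consensus, searched only on the strand shown, is found in 5% of them. Neither stretch holds the letters ACAAT (a SOX core, in 27.7% of all promoters), ACATTCC (TEAD, 3.25%) or TGANTCA (AP-1, 6.75%), searched on both strands. Of 27 members matched to a promoter, 15 held a GC box, 4 held the NF-kB consensus, 5 held ACAAT, 0 held ACATTCC and 2 held TGANTCA in at least 1 of their 35 promoters. The GC box and NF-kB letters were added after these promoters had been read, and a match in letters is not a bound site.

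None of the 4 receptors outside the integrins and syndecans (Dag1, Cd47, Ddr1 and Ddr2) passed. Dag1, the laminin receptor dystroglycan, had 48.9, 38.4 and 39.5 CPM in the articular zone and 71.0 and 71.4 CPM in the mature zone. The zones did not overlap and the mature zone libraries were nearly equal, but the log2 fold change of -0.75 (SE 0.28, unadjusted p = 0.029) did not pass over all genes (adjusted p = 0.191 from edgeR). Cd47, a receptor of thrombospondin 1, had 79.8, 86.6 and 52.5 CPM in the articular zone and 77.7 and 86.9 CPM in the mature zone. Ddr2, a collagen receptor of mesenchymal and cartilage cells, had 133, 154 and 159 CPM in the articular zone and 177 and 155 CPM in the mature zone (log2 fold change -0.16, 95% interval -0.62 to 0.31, and 0.05 on log2(FPKM + 1)). Ddr1, known from epithelium, was lower in level, at 2.41 to 16.0 CPM in the articular zone and 17.5 and 11.2 CPM in the mature zone.

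**Figure D3:**
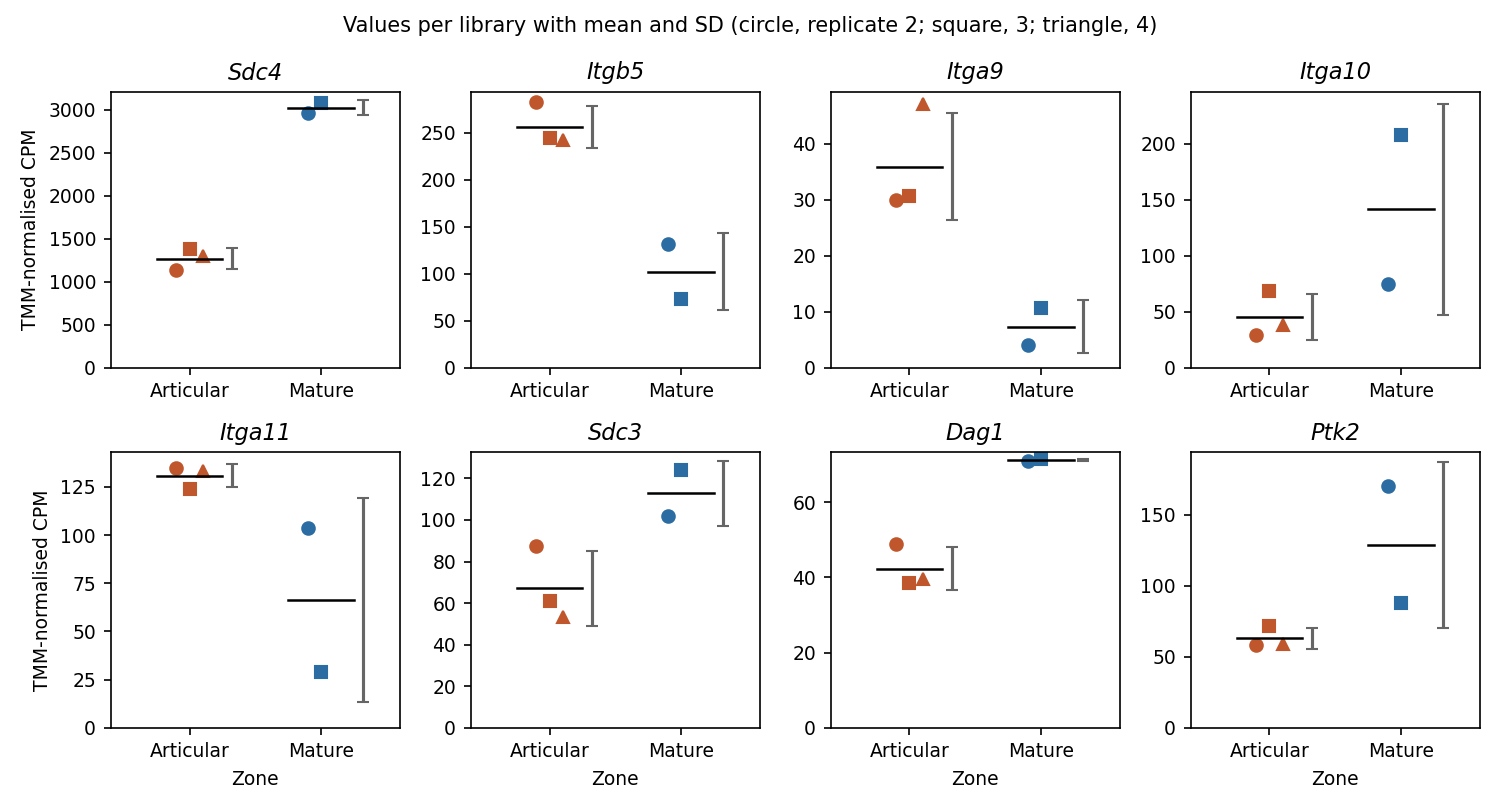
TMM-normalised CPM (linear axes from 0) of 8 members in the articular zone (orange) and mature zone (blue) libraries, with the mean as a black line and the SD as a grey bar. Sdc4 and Itgb5 are the 2 members that passed the test, and the wide SD of Itga10, Itga11 and Ptk2 in the mature zone comes from 2 libraries that are 1.94- to 3.60-fold apart.

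No gene of the focal adhesion core passed, and Ptk2 had the lowest p of the group. Ptk2, the focal adhesion kinase FAK, had 58.3, 71.7 and 59.3 CPM in the articular zone and 170 and 87.6 CPM in the mature zone. The zones did not overlap, and the log2 fold change was -1.03 (SE 0.32, unadjusted p = 0.012, adjusted p = 0.129, edgeR). Without mature zone replicate 2 the log2 fold change was -0.47, and without mature zone replicate 3 it was -1.43. In DESeq2 Ptk2 passed (adjusted p = 0.0358). Ilk, the scaffold of the ILK complex, had 152, 262 and 265 CPM in the articular zone and 253 and 169 CPM in the mature zone, with an interval of -0.59 to 0.79. Exons of other genes on the opposite strand cover 89.7% of its exon length. As no source gives the strand setting of the counting, reads of Ilk and of Rrp8 and Taf10 cannot be told apart.
Tln1, talin 1, which switches integrins on, was at 152 to 183 CPM in the articular zone and at 156 and 149 CPM in the mature zone, and Fermt2, kindlin 2, which acts with it, was at 187 to 231 CPM in the articular zone and at 296 and 232 CPM in the mature zone. Tln2, talin 2, had 80.4, 62.3 and 57.5 CPM in the articular zone and 27.1 and 52.0 CPM in the mature zone without overlap (log2 fold change 0.75, SE 0.37). Vcl, vinculin, had 303, 504 and 452 CPM in the articular zone and 346 and 111 CPM in the mature zone. Its log2 fold change was 0.88 (SE 0.45), without mature zone replicate 2 it was 1.92 (adjusted p = 0.0159, edgeR), and without mature zone replicate 3 it was 0.28 (0.687). A gene on the other strand, Ap3m1, covers 25.5% of the exon length of Vcl. Zyx, zyxin, was at 38.3 to 72.9 CPM in the articular zone and at 52.9 and 50.7 CPM in the mature zone, and Pxn, paxillin, was at 8.10 to 17.6 CPM in the articular zone and at 10.1 and 2.99 CPM in the mature zone. All 8 focal adhesion genes thus stayed outside the threshold over all genes.

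**Figure D4:**
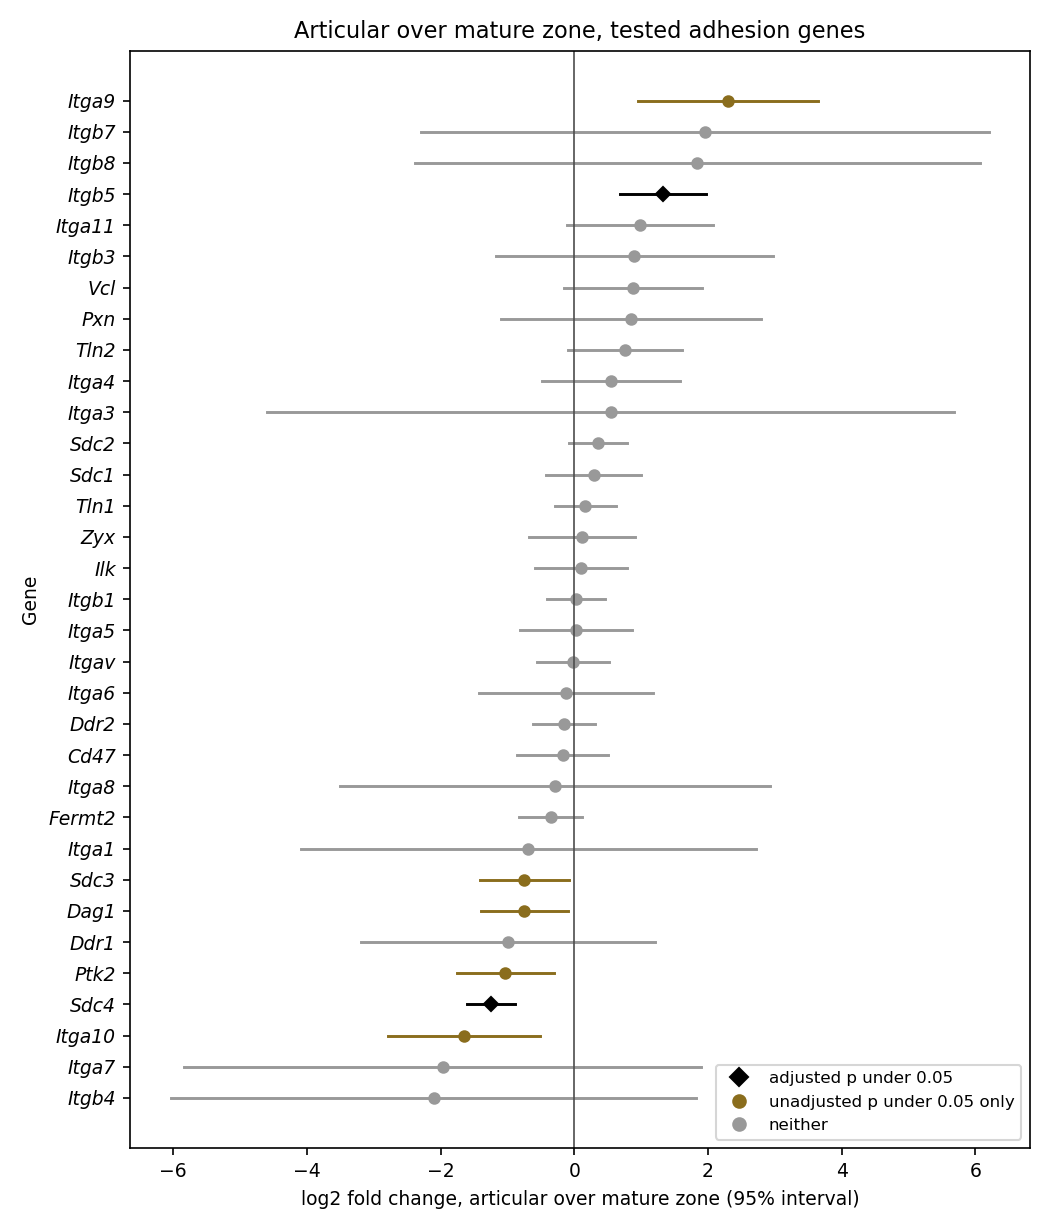
Fitted log2 fold change, articular over mature zone, with its 95% interval for the tested members except Itga2, which has 0 counts in the mature zone. Sdc4 (-1.25) and Itgb5 (1.33) passed at an adjusted p under 0.05 (black diamonds), and the intervals of Itgb1, Itgav, Tln1 and Ddr2 lie within 1 of 0.

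How far the data exclude larger differences can be read from the intervals. The 95% interval lay within 1 on the log2 scale (a 2-fold change in either direction) for 11 of the 34 members tested, or 32.4%, against 15.5% of all genes tested. These were Itga5, Itgav, Itgb1, Sdc1, Sdc2, Ddr2, Cd47, Ilk, Tln1, Fermt2 and Zyx. For Ilk the interval holds for reads that cannot be told apart from those of Rrp8 and Taf10. The shares of members and of all genes were not matched for depth. The median SE was 0.41 over the members and 0.55 over all genes. Of the 24 members that averaged at least 20 CPM in a zone, 7 were over 2-fold apart between the mature zone libraries and 3 among the articular zone libraries. At the low end, 6 members had 0 or 1 count in articular zone replicate 3, against 0 members in articular zone replicate 2 and 1 in replicate 4. In the mature zone, 3 members in replicate 2 and 2 in replicate 3 had 0 or 1 count. Why the libraries of a zone differ in this was not tested.

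Around the members, 5 lists of adhesion genes held 115 tested genes, of which 3 were higher and 6 were lower in the articular zone, where 1.14% of all genes tested were called higher and 1.85% lower. Of 52 tested genes of the adhesome (the other proteins of integrin adhesions), none was higher and 3 were lower, with a median log2 fold change of 0.19. Lims2, also called PINCH-2, is an adaptor that binds ILK, and it had 7.96, 19.9 and 17.9 CPM in the articular zone and 148 and 234 CPM in the mature zone (log2 fold change -3.64, SE 0.43, adjusted p = 0.0101 from edgeR). Its zones were far apart, and the call was lost without articular zone replicate 4 (adjusted p = 0.0831). Actn4, the actin crosslinker alpha-actinin 4, averaged 173 ± 29.6 CPM (SD, n = 3) in the articular zone, against 368 ± 58.9 CPM (SD, n = 2) in the mature zone (-1.09, SE 0.22, adjusted p = 0.0418 from edgeR), a call lost when any 1 of the 5 libraries was left out (adjusted p = 0.0627 to 0.158) and with upper-quartile normalisation (0.0555). Tenc1, an older symbol of the tensin gene Tns2, averaged 41.7 ± 4.89 CPM (SD, n = 3) in the articular zone, against 187 ± 100 CPM (SD, n = 2) in the mature zone (-2.17, SE 0.35, adjusted p = 0.0196 from edgeR). It passed without mature zone replicate 2 and not without articular zone replicate 2, 3 or 4 or mature zone replicate 3 (adjusted p = 0.0684 to 0.124).
Of 17 tested genes of other matrix receptors and tetraspanins, none was higher and 2 were lower, both membrane proteoglycans, with a median log2 fold change of 0.18. Gpc1, a glypican that carries heparan sulfate as Sdc4 does, had 672, 717 and 734 CPM in the articular zone and 1682 and 1591 CPM in the mature zone (-1.21, SE 0.15, adjusted p = 0.0107 from edgeR). Cspg4, a chondroitin sulfate proteoglycan also called NG2, had 304, 522 and 502 CPM in the articular zone and 1420 and 1876 CPM in the mature zone (-1.90, SE 0.26, adjusted p = 0.0137 from edgeR). Without articular zone replicate 3 or 4 the adjusted p was 0.0501 and 0.0915 for Gpc1 and 0.0551 and 0.0868 for Cspg4. Cspg4 is also 1 of 8 mural cell markers and was the only one of them called. The 8 summed to 843 to 1249 CPM in the articular zone and to 2130 and 2227 CPM in the mature zone. Cspg4 itself is part of these sums, so they do not describe the other mural markers. The median log2 fold change of the 8 was 2.62, opposite in sign to that of Cspg4, and 2 of them had no counts in the mature zone. Acta2, smooth muscle actin, was at 396 to 658 CPM in the articular zone and at 694 and 350 CPM in the mature zone (log2 fold change 0.01), and Rgs5 had 2063, 352 and 1306 counts in the articular zone, against 142 and 1 in the mature zone. The part of mural cells in the level of Cspg4 was not tested.
Of 27 tested integrin ligands, 3 were higher and 1 was lower, with a median log2 fold change of 0.46. Thbs1, thrombospondin 1, the ligand of Cd47, averaged 40.5 ± 16.9 CPM (SD, n = 3) in the articular zone, against 760 ± 224 CPM (SD, n = 2) in the mature zone (-4.23, SE 0.36, adjusted p = 0.00487 from edgeR), while the log2 fold change of Cd47 was -0.17 (95% interval -0.86 to 0.51). Thbs2, its relative, had 864, 664 and 820 CPM in the articular zone and 368 and 197 CPM in the mature zone (1.47, SE 0.29, adjusted p = 0.0375 from edgeR). Col4a1, a chain of basement membrane collagen, had 324, 157 and 222 CPM in the articular zone and 44.2 and 25.7 CPM in the mature zone (2.74, SE 0.39, adjusted p = 0.0151 from edgeR), and Col3a1, a chain of fibrous tissue, averaged 12157 ± 723 CPM (SD, n = 3) in the articular zone, against 6840 ± 374 CPM (SD, n = 2) in the mature zone (0.83, SE 0.14, adjusted p = 0.0263 from edgeR). Thbs1 passed in every fit with a library left out. The others lost the call without articular zone replicate 2 (adjusted p = 0.132 for Thbs2, 0.0523 for Col4a1 and 0.0623 for Col3a1), replicate 4 (0.164, 0.0872 and 0.149) or mature zone replicate 3 (0.0810, 0.0543 and 0.0852), and Thbs2 and Col3a1 also without articular zone replicate 3 (0.0964 and 0.0848).
No gene of the dystroglycan complex (16 tested) and none of the other integrin chains (3 tested) passed in edgeR. Each list had 2 genes at an unadjusted p under 0.05, which 20.1% of all genes tested reached. The 3 tested integrin chains met the count filter only through the articular zone, where they are high. Their p-values follow in part from that filter and are not read as a difference between the zones. The other integrin chains, which belong to leukocytes and platelets, summed to 19.5, 12.0 and 5.13 CPM in the articular zone and 0 and 0.499 CPM in the mature zone, and 5 of the 7 had no counts in the mature zone. Myeloid markers summed to 275, 13.8 and 122 CPM in the articular zone and 49.0 and 27.3 CPM in the mature zone.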

How the data were processed

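RNA from 3 articular zone and 2 mature zone libraries was analysed. The authors trimmed single-end poly(A) reads with Trimmomatic 0.32 and mapped them to mm10 with SHRiMP. The sources used here name neither the counting tool nor a strand setting. Deposited counts are whole reads per gene symbol with no scaling. The authors' FPKM values (22462 symbols), reads scaled for gene length and library size, have 0.1 as their minimum. The deposited table of the authors' own comparison (normalized means, fold changes and p-values) was not used.

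Counts were normalized by TMM and fitted with edgeR 4.0.16 (R 4.3.3; estimateDisp, robust glmQLFit, glmQLFTest, zone alone, 3 residual degrees of freedom). The SE is the log2 fold change divided by the square root of F, and intervals use the moderated degrees of freedom. The test was run on simulated counts with planted differences, drawn without muscle or other signals particular to a library. That run does not cover such signals in the real libraries. Members and lists were chosen with earlier results of these data known. Those described in every library are the called ones, those with an unadjusted p under 0.05 and the most abundant of each role group, and from each list the called genes are named. Others given per library (such as Itgav, Sdc2, Tln2 and Vcl) were chosen after their values were seen. FPKM and counts per kilobase of GENCODE exons differed by 0.777- to 2.70-fold over 21 members, so levels of different genes are ranked only where both scales rank them alike. No replicate number is tied to an animal by the labels. Alternatives were RLE and upper-quartile normalization, other filters, limma-voom and limma on log2 FPKM (limma 3.58.1), DESeq2 1.42.0, a replicate block, a threshold of 0.01 and leaving out each library. A fit without both replicate 2 libraries was chosen after seeing the data. Marker lists (13) were summed and not tested as sets: the sums in CPM, articular then mature zone, were 386 to 1105 and 797 to 1107 for osteoblast, 396 to 577 and 190 to 409 for osteoclast, 383 to 663 and 319 to 369 for Schwann cell, 75.8 to 278 and 32.3 to 58.5 for erythroid and 12.1 to 36.5 and 7.75 to 22.7 for platelet genes. Lymphoid and epithelial sums were at most 12.3 in any library. Figures were drawn with matplotlib 3.10.9.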

Additional observations from a re-analysis of the deposited data

How the results depend on the processing

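Sdc4 stayed lower and Itgb5 higher in the articular zone in all 17 alternatives, with log2 fold changes of -1.30 to -1.05 and 0.97 to 1.81. Among these, the threshold of 0.01 reuses the main fit, so its direction was fixed in advance. The call held in 14 of the 17 for Sdc4 and in 10 for Itgb5. The number of genes called was 393, and 593 without a count filter, 226 with the replicate block, 1802 in DESeq2, 1 in limma on unfiltered log2(FPKM + 1), 32 at an adjusted p under 0.01, 1591 without both replicate 2 libraries and 13 to 1289 with a library left out. In the same comparison, members called higher numbered 1, and 2 with at least 10 counts in every library, 0 with the replicate block, 2 in DESeq2, 0 in unfiltered FPKM, 0 at an adjusted p under 0.01, 3 without both replicate 2 libraries and 0 to 3 with a library left out. Members called lower numbered 1, and 3 in DESeq2, 0 in unfiltered FPKM, 0 at an adjusted p under 0.01, 3 without both replicate 2 libraries and 0 to 2 with a library left out. Of the adhesion lists, 3 genes were higher, and 5 with at least 10 counts in every library, 5 in limma-voom, 13 in DESeq2, 6 on log2(FPKM + 1), 0 without its filter, 0 at an adjusted p under 0.01, 15 without both replicate 2 libraries and 0 to 14 with a library left out. On the lower side the 6 genes became 10 in limma-voom, 12 in DESeq2, 0 in unfiltered FPKM, 1 at an adjusted p under 0.01, 12 without both replicate 2 libraries and 1 to 10 with a library left out. The cause of these moves was not tested.

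Some members near 0 changed sign, in log2 fold change. Itgav was 0.077 with upper-quartile normalization, 0.031 with at least 10 counts in every library, 0.10 with the replicate block, 0.19 on log2(FPKM + 1) with and without the filter and 0.23 on log2(FPKM + 0.1). Cd47 was 0.016 with the replicate block, 0.024 on log2(FPKM + 1) with and without the filter and 0.023 on log2(FPKM + 0.1). Ddr2 was 0.051 on log2(FPKM + 1) with and without the filter, 0.058 on log2(FPKM + 0.1) and 0.020 without both replicate 2 libraries, and Itga6 0.0084 on log2(FPKM + 0.1). With the replicate block Itgb1 was -0.015 and Ilk -0.050. Itga8 was 1.18 with the replicate block and 1.46 in limma-voom. Without both replicate 2 libraries Itga8 was 4.54, Itga3 -0.54 and Itga6 0.096. With a library left out, the ranges were -0.45 to 8.50 for Itga3, -0.62 to 0.59 for Itga6, -0.43 to 0.68 for Itga5, -1.27 to 5.28 for Itga8, -0.16 to 0.10 for Itgav, -0.15 to 0.22 for Itgb1, -0.12 to 0.87 for Sdc1, -0.30 to 0.019 for Cd47, -0.16 to 0.42 for Ilk and -0.11 to 0.33 for Zyx.

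The labels do not say whether libraries with the same replicate number are paired, and the main fit did not pair them. Deviations from the zone means correlated across genes at 0.145 for the libraries numbered 2 and 0.131 for those numbered 3. With 2 mature zone libraries, the deviations of one mirror those of the other, so these values cannot decide whether the libraries are paired. With the replicate block, Itgb5 had an adjusted p of 0.0554 and Sdc4 one of 0.0338. Of the list genes, Actn4 (0.102), Tenc1 (0.0627) and Col3a1 (0.0963) lost their calls with the block. Actn4 also lost its call on log2(FPKM + 1) (0.129) and log2(FPKM + 0.1) (0.141) and without both replicate 2 libraries (0.0553). With 1 mature zone library left, that library is assumed to vary like those of the articular zone. Little is read from the members under about 20 CPM, among which single libraries fell to 0 or 1 count. Why they did was not tested.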
